A study of Mus musculus with 3 samples.

Results

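The genes described here are 37 interferon-stimulated genes, chosen by name and found in the deposited tables by an exact match of the gene symbol. Each table holds 23283 rows, and all 37 genes were found in both. RNA came from CD4+ T cells that bind 2W:I-A(b), a tetramer of the 2W1S peptide on a mouse MHC class II molecule. The mice were C57BL/6, injected in the footpads with the peptide, LPS and IFA, an oil adjuvant, and the cells were sorted on day 7 from the draining popliteal and inguinal nodes. The groups were IL6ra T-KO (labelled as lacking the alpha chain of the IL-6 receptor, with the deletion in T cells per the series title), MyD88 T-KO (labelled Myd88 -/-, likewise deleted in T cells) and WT, which had the same immunization and no deletion. The promoter driving the deletion and the age of the mice were not stated in the sources at hand. Each group is 1 library of cells pooled from 4 experiments and 15 to 30 mice, so no difference below has a replicate check and no test across mice was possible.

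Interferon-stimulated genes are switched on when type I interferons bind IFNAR on the cell surface. The kinases JAK1 and TYK2 then activate a complex that holds STAT2 and IRF9 and binds the interferon-stimulated response element (ISRE) in promoters, while interferon gamma acts mainly at the gamma-activated sequence (GAS). The products sense viral RNA, block translation, degrade RNA, modify proteins with ISG15 or ADP-ribose, alter membranes and nucleotides, and feed peptides to MHC class I molecules. In T cells their level is a common readout of recent exposure to interferon.

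Labels were checked first. Myd88 had 19.5 FPKM in MyD88 T-KO, against 49.8 FPKM in WT. Myd88 was also below WT in the library labelled as IL6ra T-KO, at 34.2 FPKM there against 51.0 FPKM in WT (ratio -0.56). Il6ra stood at 65.1 FPKM there, against 57.1 FPKM in WT, so the targeted gene was not lower there, and that library is called by its label throughout. FPKM is the fragment count divided by transcript length and by library depth, and such a transcript-wide value can include fragments from outside a deleted stretch. Estimated library depth ranged between 21.1 and 23.9 M fragments. T lineage markers were abundant in all libraries (Cd4 at 445 FPKM in the library labelled as IL6ra T-KO and 462 FPKM in MyD88 T-KO, against 425 and 415 FPKM for WT in the same tables). Of 8 such markers, 2 lay above WT in the library labelled as IL6ra T-KO and 7 in MyD88 T-KO. Over all genes, 43.1% and 54.2% lay above WT. The 8 summed to 2815 FPKM in the library labelled as IL6ra T-KO, against 3033 FPKM in WT. In MyD88 T-KO they summed to 3117 FPKM, against 2960 FPKM in WT. The library labelled as IL6ra T-KO also stood apart in the Y-linked gene Eif2s3y, with 15.7 FPKM against 3.96 FPKM in WT. Whether this and the Il6ra value bear on the genes below was not tested.

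In the library labelled as IL6ra T-KO, all 37 interferon-stimulated genes had a higher FPKM than in WT, by small amounts. In the MyD88 T-KO library the same genes stood at WT level, with 18 above and 18 below it. Ratios are given as log2((knockout FPKM + 1)/(WT FPKM + 1)). The added 1 FPKM makes the ratios of low genes smaller. For the library labelled as IL6ra T-KO its median over the 37 genes was 0.42, or 1.34-fold, with an interquartile range of 0.22 to 0.52, beside a median of -0.04 over all 10502 genes with FPKM of at least 1 in either library. For MyD88 T-KO the median over 36 genes was -0.00 and the mean 0.01, beside a median of 0.01 over 10345 genes. Ifi44 was left out there, as it was below 1 FPKM in both libraries. The 2 comparisons share the WT library, so an unusual WT value would shift both ratios of a gene.

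**Figure D1:**
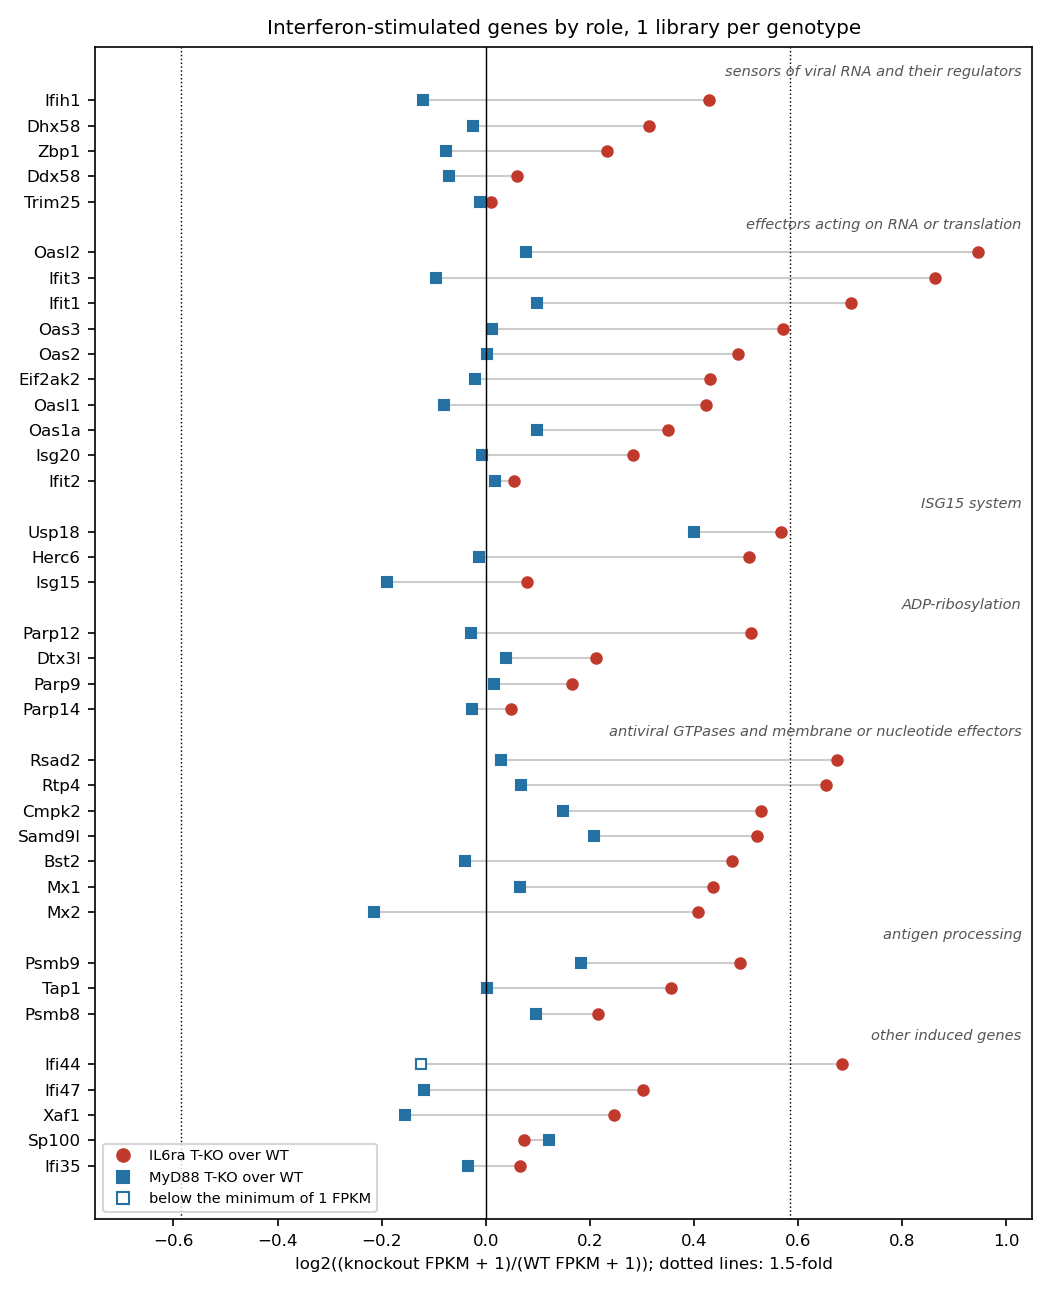
Log2 ratio of FPKM + 1, knockout over WT, for each of the 37 interferon-stimulated genes, grouped by role; circles are the library labelled as IL6ra T-KO, squares MyD88 T-KO, and dotted lines mark a 1.5-fold difference. All circles lie right of 0, between 0.01 (Trim25) and 0.95 (Oasl2), while the filled squares lie between -0.21 (Mx2) and 0.40 (Usp18).

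The direction was shared more widely than the size. A log2 ratio above 0 was found for 37 of 37 genes in the library labelled as IL6ra T-KO, where 43.1% of all genes lay above 0. Of the 37, 30 lay above the upper quartile of all genes, which was 0.12. At least 1.5-fold higher were 6 of 37 genes (Oasl2, Ifit3, Ifit1, Ifi44, Rsad2 and Rtp4), or 16.2%, beside 4.2% of all genes. Ifi44 reached 1 FPKM only in the library labelled as IL6ra T-KO, where it was high, and without it the counts were 36 of 36 above 0 and 5 of 36 at least 1.5-fold higher, with a median of 0.42. None was at least 1.5-fold lower, beside 2.89% of all genes. Just outside that threshold lay Oas3 and Usp18, both at 0.57, and just inside it lay Rtp4 at 0.65, where 1.5-fold is 0.58. The count was 11 with a pseudocount of 0.1 FPKM and 2 with one of 5 FPKM, and the median was 0.25 with 5 FPKM. In MyD88 T-KO, 18 of 36 genes lay above 0, beside 54.2% of all genes, and none was 1.5-fold higher or lower, beside 1.13% and 1.01% of all genes.

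The deposited significance calls name none of these genes. In the authors' deposited table for the library labelled as IL6ra T-KO, 0 of 37 were significant, beside 0.969% of the 11356 genes tested. By the unadjusted p-values of the authors' deposited table, 7 of the 37 fell under 0.05, beside 5.8% of the genes tested, and the lowest q-value was 0.184, for Oasl2. In the authors' deposited table for MyD88 T-KO, 0 of 37 were significant, beside 0.878% of 11164 genes, and 0 had an unadjusted p-value under 0.05, beside 4.31% of the genes tested. An error for each ratio follows from the fold change and test statistic in the authors' deposited table and comes from their model, not from replicates. It had a median of 0.34 for the library labelled as IL6ra T-KO and 0.20 for MyD88 T-KO. It is called the implied SE below and belongs to the ratio without the added 1 FPKM.

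**Figure D2:**
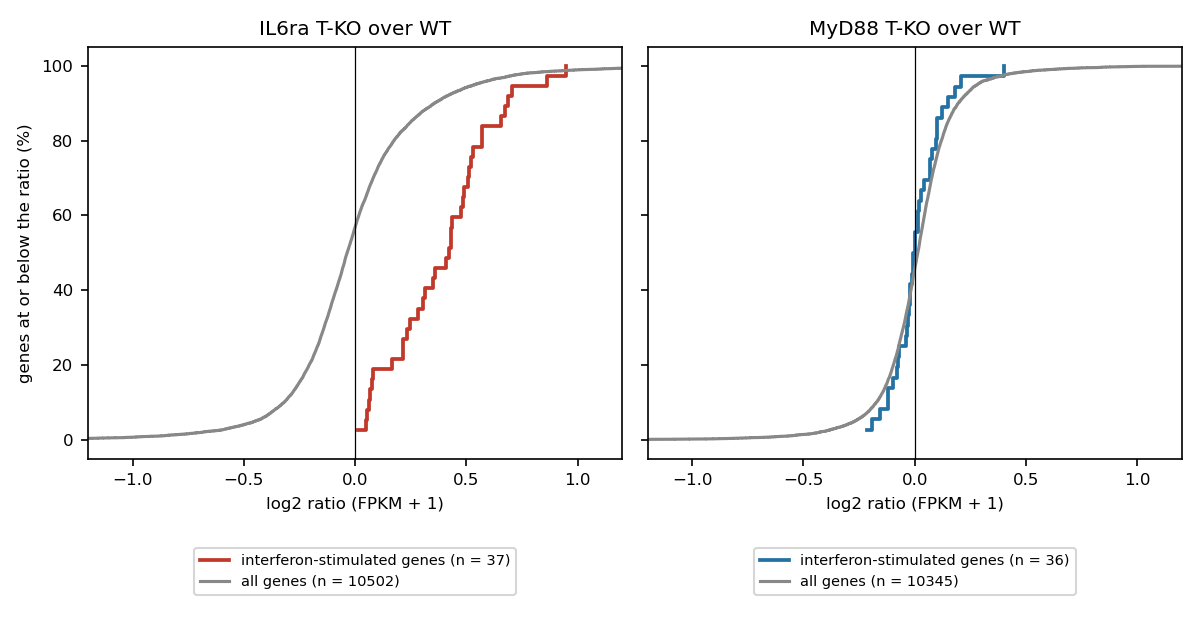
Cumulative share of genes, in percent, at or below each log2 ratio of FPKM + 1, for the interferon-stimulated genes (coloured steps) and all genes with FPKM of at least 1 (grey), with the library labelled as IL6ra T-KO on the left and MyD88 T-KO on the right. The interferon-stimulated genes have a median of 0.42 on the left, where all genes have -0.04, and the curves run close together on the right.

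Promoter sequences show one feature that some of these genes share and that was not used to choose them. RefSeq promoters on GRCm38.p6, from 250 bases before to 50 bases after the annotated start, were found for 28 of the 37 genes, and none for Dhx58, Mx1, Mx2, Oas2, Parp14, Parp9, Rtp4, Usp18 and Zbp1. They were searched on both strands for an ISRE core, GAAANNGAAA, where N is any base. It was found in 10 of 28 (35.7%), beside 3.99% of the 27025 gene symbols with a promoter in the same table. The 250 bases before the start are shown for Ifit1 and Ifit3, which had large ratios, and for Isg15, which had a small one. Sequences run 5′ to 3′ in the direction of the gene, and capitals mark the ISRE core matches, on either strand.
Ifit3 (chr19:34583279-34583528, plus strand): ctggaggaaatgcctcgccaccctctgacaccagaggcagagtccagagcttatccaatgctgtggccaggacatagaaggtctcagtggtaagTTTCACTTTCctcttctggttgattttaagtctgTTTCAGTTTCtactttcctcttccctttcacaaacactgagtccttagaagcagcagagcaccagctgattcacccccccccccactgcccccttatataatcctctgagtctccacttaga
Ifit1 (chr19:34640639-34640888, plus strand): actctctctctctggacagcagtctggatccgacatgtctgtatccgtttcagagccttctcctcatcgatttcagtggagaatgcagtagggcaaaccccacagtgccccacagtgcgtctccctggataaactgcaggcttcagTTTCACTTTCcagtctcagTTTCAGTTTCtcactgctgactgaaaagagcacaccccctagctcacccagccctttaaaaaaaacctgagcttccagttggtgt
Isg15 (chr4:156200819-156201068, minus strand): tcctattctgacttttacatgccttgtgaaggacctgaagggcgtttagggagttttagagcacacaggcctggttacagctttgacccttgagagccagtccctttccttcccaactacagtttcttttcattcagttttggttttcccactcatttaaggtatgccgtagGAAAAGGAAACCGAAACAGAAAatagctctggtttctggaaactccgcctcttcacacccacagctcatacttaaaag

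Ifit3 and Ifit1 each hold a pair of separate matches, in Ifit3 starting 156 and 122 bases before the start site and in Ifit1 104 and 85 bases before it. Isg15 holds 3 overlapping matches, the first starting 78 bases before the start site. For the other 7 genes with a match, only the matched bases and up to 10 bases on either side are shown, so that spacing and strand can be compared.
Rsad2 (chr12:26456553-26456582, minus strand): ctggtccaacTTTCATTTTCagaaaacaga
Oas3 (chr5:120777715-120777744, minus strand): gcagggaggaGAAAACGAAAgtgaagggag
Bst2 (chr8:71537577-71537612, minus strand): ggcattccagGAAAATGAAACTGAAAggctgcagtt
Eif2ak2 (chr17:78882535-78882564, minus strand): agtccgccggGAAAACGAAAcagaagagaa
Ifih1 (chr2:62646206-62646233, minus strand): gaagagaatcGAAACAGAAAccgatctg
Oas1a (chr5:120907520-120907555, minus strand): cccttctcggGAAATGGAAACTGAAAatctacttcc
Ddx58 (chr4:40239804-40239833, minus strand): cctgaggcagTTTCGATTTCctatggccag

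Bst2 and Oas1a each carry a run of overlapping matches. In Rsad2, Oas3 and Bst2 the match lies 75 to 130 bases before the start site, while in Ddx58, Eif2ak2 and Ifih1 it lies just after it. The 10 genes with an ISRE core had a median ratio of 0.45 in the library labelled as IL6ra T-KO, ranging from 0.06 (Ddx58) to 0.86 (Ifit3). The 18 with a promoter but no match had 0.33, ranging from 0.01 (Trim25) to 0.95 (Oasl2), so the ranges overlapped. In MyD88 T-KO the same groups had medians of -0.03 and -0.00, and here the 18 include Ifi44, although it was below 1 FPKM in that comparison. The GAS letters, TTCNNNGAA on either strand, were found in 7 of 28 promoters (25%; Bst2, Eif2ak2, Ifi35, Ifit2, Isg20, Oas1a and Psmb8), beside 9.55% of all symbols. The Bst2 GAS match shares bases with its ISRE match. A match describes letters in this window and is no evidence of binding, and the lack of one says only that these letters are not in the window.

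**Figure D3:**
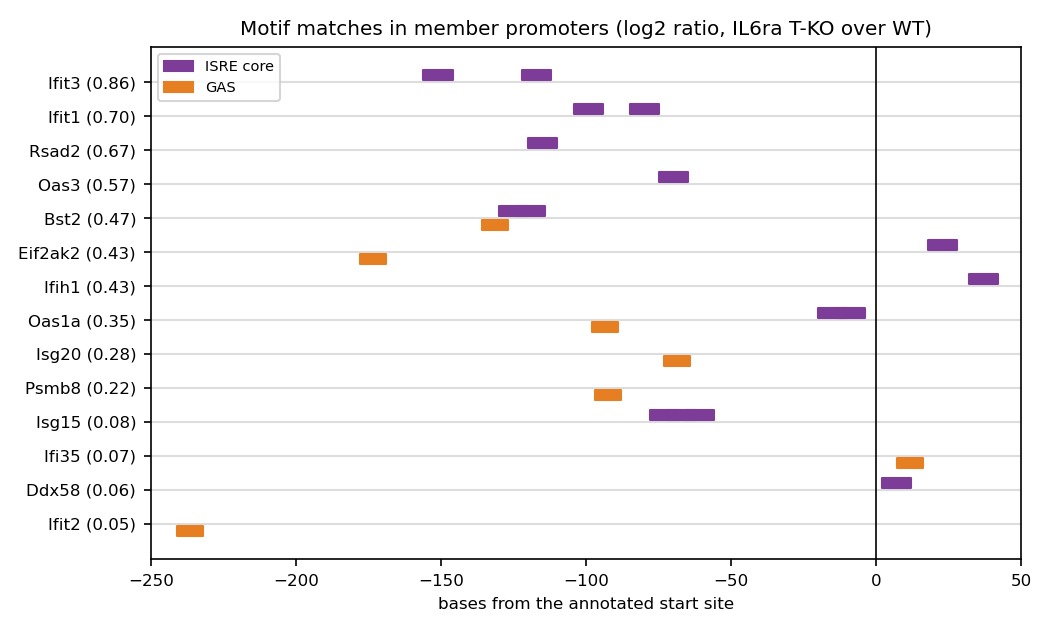
Positions of ISRE core (purple) and GAS (orange) letters, in bases from the annotated start site, in the 14 promoters of interferon-stimulated genes that hold either; the number beside each gene is its log2 ratio, the library labelled as IL6ra T-KO over WT. ISRE matches lie before the start in 7 genes and after it in 3, and Isg15, with 3 matches, has a ratio of 0.08.

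Among the sensors of viral RNA and their regulators, 5 genes were measured. They are Ifih1 (MDA5, which binds long double-stranded RNA), Ddx58 (RIG-I, which binds short RNA with a triphosphate end), Dhx58 (LGP2, which tunes both), Trim25 (a ubiquitin ligase that acts with RIG-I) and Zbp1 (a sensor of left-handed nucleic acid that can trigger necroptosis). Their median ratio was 0.23 in the library labelled as IL6ra T-KO and -0.07 in MyD88 T-KO. Ifih1 stood at 16.2 FPKM in the library labelled as IL6ra T-KO, against 11.8 FPKM in WT (ratio 0.43, implied SE 0.29), and at 10.5 FPKM in MyD88 T-KO, against 11.5 FPKM in WT (ratio -0.12, implied SE 0.17). Ddx58 stood at 20.04 FPKM in the library labelled as IL6ra T-KO and 17.8 FPKM in MyD88 T-KO, against 19.2 and 18.7 FPKM for WT in the same tables. Trim25 stood at 19.7 FPKM in the library labelled as IL6ra T-KO and 18.9 FPKM in MyD88 T-KO, against 19.5 and 19.1 FPKM in WT. The 5 ratios in the library labelled as IL6ra T-KO ran from 0.01 (Trim25) and 0.06 (Ddx58) through 0.23 (Zbp1) and 0.31 (Dhx58) to 0.43 (Ifih1), and neighbours in that order differed by less than their implied SE. All 5 lay below WT in MyD88 T-KO, where 54.2% of all genes lay above it. They did so by between 0.01 and 0.12 on the log2 scale, which is less than their implied SE.

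The 10 effectors that act on RNA or translation included the genes with the 3 largest ratios, Oasl2, Ifit3 and Ifit1. Their median was 0.46 in the library labelled as IL6ra T-KO and 0.01 in MyD88 T-KO. Oasl2, an oligoadenylate synthetase-like protein that carries ubiquitin-like repeats, stood at 8.32 FPKM in the library labelled as IL6ra T-KO, against 3.84 FPKM in WT, and at 4.01 FPKM in MyD88 T-KO, against 3.75 FPKM in WT. Its log2 ratio of 0.95 (implied SE 0.38) in the library labelled as IL6ra T-KO was the largest of the 37. Without the pseudocount this was a ratio of 2.17, with a 95% interval of 1.87 to 2.51 for counting error only, from an estimated 620 fragments in the library labelled as IL6ra T-KO and 260 in WT. Its neighbour Oasl1, which restrains translation of Irf7 mRNA in mice, had a ratio of 0.42.

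The Ifit genes encode proteins that bind foreign or incompletely capped RNA and block its translation. Ifit3 stood at 15.8 FPKM in the library labelled as IL6ra T-KO and 7.47 FPKM in MyD88 T-KO, against 8.25 and 8.06 FPKM for WT in the same tables. Ifit1 stood at 17.3 FPKM in the library labelled as IL6ra T-KO and 10.8 FPKM in MyD88 T-KO, against 10.3 and 10.02 FPKM in WT. Ifit2 stood at 7.32 FPKM in the library labelled as IL6ra T-KO and 6.94 FPKM in MyD88 T-KO, against 7.02 and 6.85 FPKM in WT. Only Ifit3 and Ifit1 therefore stood above WT by more than 1.5-fold in the library labelled as IL6ra T-KO, with log2 ratios of 0.86 (implied SE 0.36) and 0.70 (implied SE 0.33), while Ifit2 was at 0.05 (implied SE 0.34). These 3 genes lie side by side on chromosome 19 between 34550694 and 34650009 (mm10). Ifit3 and Ifit1 have near-identical copies in the mouse genome, so their values are uncertain, as are those of Oas1a, Mx2 and Sp100 for the same reason.

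The oligoadenylate synthetases make a short messenger that activates RNase L, which cuts RNA. Oas3 stood at 20.2 FPKM in the library labelled as IL6ra T-KO and 13.0 FPKM in MyD88 T-KO, against 13.2 and 12.9 FPKM for WT in the same tables. Its ratio was 0.57 (implied SE 0.28) in the library labelled as IL6ra T-KO and 0.01 in MyD88 T-KO. Oas2 (0.48) and Oas1a (0.35), which neighbour it on chromosome 5, also lay above WT in the library labelled as IL6ra T-KO. So did Eif2ak2, the kinase PKR that stops translation on double-stranded RNA (0.43), and Isg20, an exonuclease of single-stranded RNA (0.28). In MyD88 T-KO these genes lay between -0.02 and 0.10.

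The ISG15 system attaches a ubiquitin-like protein to other proteins. Isg15, the modifier itself, stood at 58.9 FPKM in the library labelled as IL6ra T-KO and 47.5 FPKM in MyD88 T-KO, against 55.7 and 54.4 FPKM for WT in the same tables. Its ratios were 0.08 (implied SE 0.32) and -0.19 (implied SE 0.19), among the lowest of the 37 in both comparisons. Usp18, the protease that removes ISG15 and also dampens signalling from IFNAR, stood at 8.45 FPKM in the library labelled as IL6ra T-KO, against 5.37 FPKM in WT (ratio 0.57, implied SE 0.43). In MyD88 T-KO Usp18 stood at 7.24 FPKM, against 5.24 FPKM in WT, and its ratio of 0.40 (implied SE 0.26) was the largest of the 36 genes measured there. Herc6, the mouse ligase for ISG15, had ratios of 0.51 in the library labelled as IL6ra T-KO and -0.01 in MyD88 T-KO. The differences between these 3 ratios were not tested, and the implied SE of each is 0.31 or more in the library labelled as IL6ra T-KO.

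Of the ADP-ribosylation genes, Parp14, Parp9 and Parp12 encode enzymes or binders of ADP-ribose, and Dtx3l encodes the ubiquitin ligase that partners PARP9. Parp14 stood at 28.0 FPKM in the library labelled as IL6ra T-KO and 25.9 FPKM in MyD88 T-KO, against 27.1 and 26.4 FPKM for WT in the same tables, ratios of 0.05 and -0.03. Parp12, on another chromosome, had the largest ratio of the 4 in the library labelled as IL6ra T-KO, at 0.51. Dtx3l and Parp9 had 0.21 and 0.17. The tables give Parp9 and Dtx3l a single shared locus, and their RefSeq genes overlap by 558 bases. Whether counting used strand was not stated in the sources at hand, so their values are not separate.

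The 7 antiviral GTPases and membrane or nucleotide effectors lay close together in the library labelled as IL6ra T-KO, from 0.41 to 0.67 with a median of 0.52. Rsad2 (viperin, which makes a chain-terminating nucleotide) stood at 7.83 FPKM in the library labelled as IL6ra T-KO and 4.54 FPKM in MyD88 T-KO, against 4.53 and 4.42 FPKM for WT in the same tables. Rtp4, a receptor-transporting protein with antiviral activity, stood at 29.5 FPKM in the library labelled as IL6ra T-KO and 18.8 FPKM in MyD88 T-KO, against 18.4 and 17.9 FPKM in WT. Their log2 ratios were 0.67 (implied SE 0.37) and 0.65 (implied SE 0.32) in the library labelled as IL6ra T-KO, and 0.03 and 0.07 in MyD88 T-KO. Cmpk2, a mitochondrial nucleotide kinase next to Rsad2 on chromosome 12, stood at 9.25 FPKM in the library labelled as IL6ra T-KO, against 6.10 FPKM in WT, and at 6.71 FPKM in MyD88 T-KO, against 5.96 FPKM in WT (ratios 0.53 and 0.15). Samd9l, a translation inhibitor, stood at 17.7 FPKM in the library labelled as IL6ra T-KO and 13.7 FPKM in MyD88 T-KO, against 12.0 and 11.7 FPKM in WT (ratios 0.52 and 0.21). These 4 genes lay close together in the library labelled as IL6ra T-KO, between 0.52 and 0.67.

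Bst2 (tetherin, which holds budding virus at the membrane) had ratios of 0.47 in the library labelled as IL6ra T-KO and -0.04 in MyD88 T-KO. Mx1 and Mx2 belong to the dynamin-like GTPases that trap viral particles, and RefSeq annotates both as transcribed pseudogenes in the mouse reference. Mx2 stood at 2.72 FPKM in the library labelled as IL6ra T-KO, against 1.805 FPKM in WT, and at 1.38 FPKM in MyD88 T-KO, against 1.76 FPKM in WT. Its ratio of -0.21 (implied SE 0.37) in MyD88 T-KO was the lowest of the 36 genes, and rests on an estimated 70 fragments in MyD88 T-KO and 94 in WT. Mx1 had ratios of 0.44 in the library labelled as IL6ra T-KO and 0.07 in MyD88 T-KO.

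The antigen processing genes were the most abundant. Psmb8, a subunit of the immunoproteasome that cuts proteins into peptides for MHC class I, stood at 265 FPKM in the library labelled as IL6ra T-KO and 238 FPKM in MyD88 T-KO, against 228 and 222 FPKM for WT in the same tables. Psmb9, another immunoproteasome subunit, stood at 152 FPKM in the library labelled as IL6ra T-KO and 120 FPKM in MyD88 T-KO, against 108 and 106 FPKM in WT. Tap1, which with Tap2 pumps peptides into the endoplasmic reticulum, stood at 123 FPKM in the library labelled as IL6ra T-KO and 93.8 FPKM in MyD88 T-KO, against 95.9 and 93.6 FPKM in WT. Their ratios in the library labelled as IL6ra T-KO were 0.22, 0.49 and 0.36 in that order, and in MyD88 T-KO 0.10, 0.18 and 0.00. Psmb9 and Tap1 are transcribed away from each other from start sites 226 bases apart on chromosome 17 (34187330 and 34187556).

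The remaining genes were Sp100 (a nuclear body protein), Ifi35, Xaf1 (a promoter of apoptosis), Ifi47 (an interferon-inducible GTPase) and Ifi44. Sp100 stood at 96.4 FPKM in the library labelled as IL6ra T-KO and 97.2 FPKM in MyD88 T-KO, against 91.5 and 89.3 FPKM for WT in the same tables (ratios 0.07 and 0.12). Xaf1 stood at 9.30 FPKM in the library labelled as IL6ra T-KO and 6.63 FPKM in MyD88 T-KO, against 7.68 and 7.50 FPKM in WT (ratios 0.25 and -0.15). Neither gene differed from WT by more than its implied SE in either comparison. Ifi44 stood at 1.37 FPKM in the library labelled as IL6ra T-KO, against 0.472 FPKM in WT, and at 0.341 FPKM in MyD88 T-KO, against 0.461 FPKM in WT. Its ratio in the library labelled as IL6ra T-KO was 0.69, from an estimated 95 fragments there and 30 in WT. Without the added 1 FPKM the log2 ratio was 1.53, to which the implied SE of 0.70 belongs. Ifi47 had ratios of 0.30 and -0.12, and Ifi35 of 0.07 and -0.03.

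**Figure D4:**
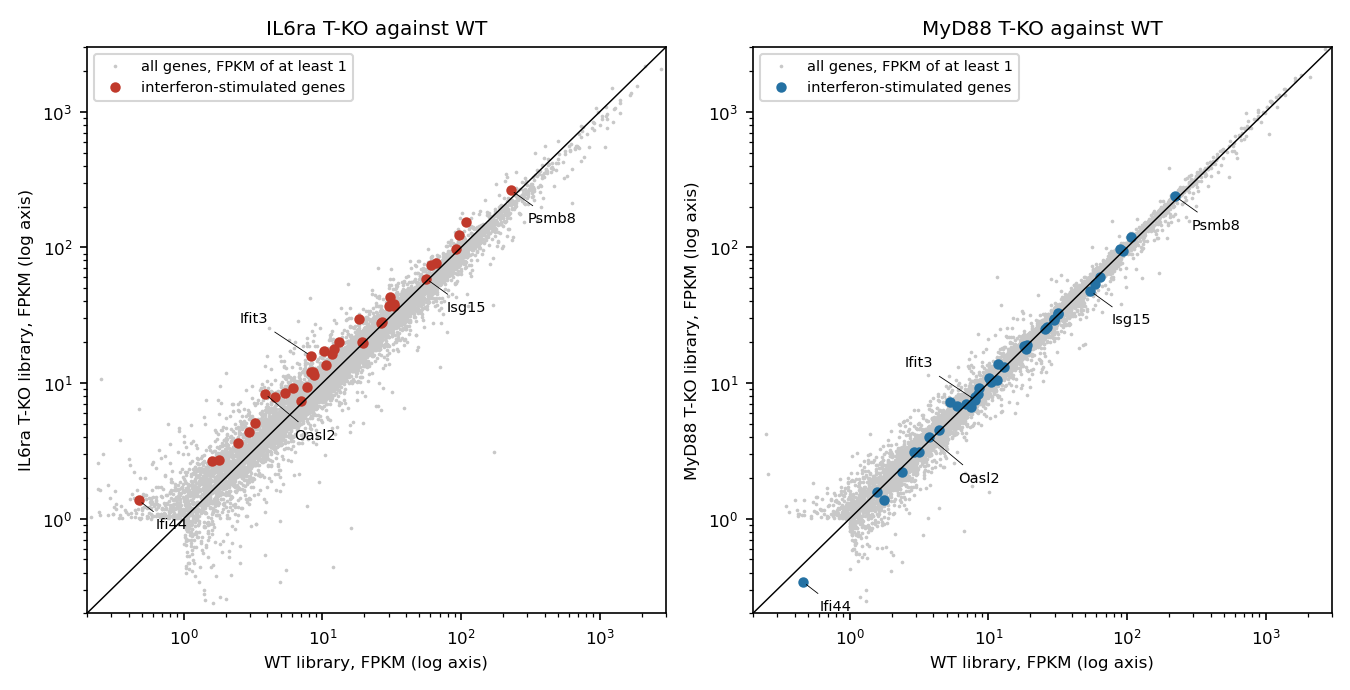
FPKM in the knockout library (vertical, log axis) against FPKM in WT (horizontal, log axis) for all genes with FPKM of at least 1 in either library (grey) and the 37 interferon-stimulated genes (coloured), with the library labelled as IL6ra T-KO on the left and MyD88 T-KO on the right. Psmb8 at 265 FPKM against 228 FPKM in WT is the most abundant on the left, and on the right the coloured points lie along the line of equal FPKM.

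The size of the ratio varied with abundance in the library labelled as IL6ra T-KO. The 13 genes with at least 20 FPKM in WT had a median of 0.22, the 16 between 5 and 20 FPKM had 0.47, and the 8 below 5 FPKM had 0.50. All genes at those levels had medians of -0.10, -0.03 and 0.10, so a rise towards low levels was also seen outside this group. Summed over the 37 genes, FPKM was 1333 in the library labelled as IL6ra T-KO, against 1080 in WT. The sum was 1080 in MyD88 T-KO, against 1054 in WT. In bulk RNA, more cells with the response and more RNA per cell cannot be told apart.

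Some of these genes are neighbours. Of the 37 genes, 18 lie in 7 clusters with gaps of at most 200000 bases, and the 37 lie on 13 chromosomes. Within the Ifit cluster the ratios in the library labelled as IL6ra T-KO spanned 0.05 to 0.86, within the Oas cluster 0.35 to 0.57, and within the Oasl pair 0.42 to 0.95. The shared direction in the library labelled as IL6ra T-KO was thus seen at many loci.

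Upstream of these genes, Ifng, which encodes interferon gamma, stood at 27.7 FPKM in the library labelled as IL6ra T-KO, against 12.5 FPKM in WT, and at 6.07 FPKM in MyD88 T-KO, against 12.2 FPKM in WT. Its ratios were 1.09 (implied SE 0.39) and -0.90 (implied SE 0.29). Ifng was thus higher in the library with higher interferon-stimulated genes, and lower in MyD88 T-KO, where those genes stood at WT level, and its part in their ratios was not tested. Ifnb1, Ifna2, Ifna4, Ifne and Il28b were listed at 0 FPKM in all libraries. Of 5 interferon receptor genes with FPKM of at least 1, 2 lay above WT in each comparison. Over all genes the shares were 43.1% for the library labelled as IL6ra T-KO and 54.2% for MyD88 T-KO. In the library labelled as IL6ra T-KO the type I receptor chains Ifnar1 and Ifnar2 had ratios of 0.05 and -0.45, and the interferon gamma receptor chains Ifngr1 and Ifngr2 had 0.32 and -0.04. In MyD88 T-KO the same chains had -0.08, -0.02, -0.03 and 0.09.

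Several transcription factors of the pathway are themselves induced by interferon. Irf7, which amplifies type I interferon production, stood at 44.2 FPKM in the library labelled as IL6ra T-KO and 31.4 FPKM in MyD88 T-KO, against 34.6 and 33.8 FPKM for WT in the same tables (ratios 0.34 and -0.10). Stat2 had ratios of 0.25 and 0.13, and Irf9 of 0.21 and 0.08. Irf1, an early interferon-induced factor, had 0.01 and -0.26, and the kinase Jak2 had -0.54 and -0.10. Over the 10 JAK, STAT and IRF genes of this list the median was 0.02 in the library labelled as IL6ra T-KO, with 7 above WT. In MyD88 T-KO it was -0.07, with 3 above WT. Of 9 measured adaptors and kinases that lead to interferon production, 6 lay above WT in the library labelled as IL6ra T-KO (median 0.11). In MyD88 T-KO 5 of the 9 did (median 0.02). Over all genes, 43.1% and 54.2% lay above WT in these comparisons, so the MyD88 T-KO count was near the share of all genes.

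Of 6 negative regulators of cytokine signalling, 2 were at least 1.5-fold lower in the library labelled as IL6ra T-KO, beside 2.89% of all genes. The rest of this list lay between -0.21 (Ptpn2) and 0.02 (Pias1) there. Socs1, which blocks JAK kinases downstream of interferon receptors, stood at 36.7 FPKM in the library labelled as IL6ra T-KO, against 112 FPKM in WT, and at 88.6 FPKM in MyD88 T-KO, against 109 FPKM in WT. Socs3, the main inhibitor of IL-6 signalling, stood at 37.9 FPKM in the library labelled as IL6ra T-KO, against 169 FPKM in WT, and at 117 FPKM in MyD88 T-KO, against 165 FPKM in WT. The ratios were -1.58 for Socs1 and -2.13 for Socs3 in the library labelled as IL6ra T-KO, and -0.30 and -0.49 in MyD88 T-KO. Both genes are also targets of STAT3, and whether they bear on the interferon-stimulated genes was not tested.

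Interferon-induced genes outside the 37 were read from a longer list, of which 33 of 41 genes were found. The list was chosen with earlier results of these data known, so it is no independent check of the 37. In the library labelled as IL6ra T-KO 26 of 33 lay above WT, with a median of 0.27, and 3 were at least 1.5-fold higher and 1 at least 1.5-fold lower. Over all genes the shares were 43.1% above WT, 4.2% at least 1.5-fold higher and 2.89% at least 1.5-fold lower. Ifi204, a DNA sensor of the pyrin and HIN domain family, stood at 20.6 FPKM in the library labelled as IL6ra T-KO, against 5.74 FPKM in WT (ratio 1.68). Ube2l6, the conjugating enzyme for ISG15, stood at 11.3 FPKM in the library labelled as IL6ra T-KO, against 5.22 FPKM in WT (ratio 0.98). Slfn8, a schlafen family gene, had a ratio of 0.74. The lower gene was Ly6a, which encodes a surface antigen of activated lymphocytes, at 336 FPKM in the library labelled as IL6ra T-KO, against 582 FPKM in WT. In MyD88 T-KO 17 of 33 lay above WT, beside 54.2% of all genes, with a median of 0.02 and none past 1.5-fold. Of 13 further antigen processing genes, 12 lay above WT in the library labelled as IL6ra T-KO (median 0.10) and 8 in MyD88 T-KO (median 0.03). Cd74 and Ciita, which serve MHC class II presentation and are strong in B cells, were past 1.5-fold in MyD88 T-KO (ratios 0.92 and 0.84). In the library labelled as IL6ra T-KO both had a ratio of 0.57, just under 1.5-fold.

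**Figure D5:**
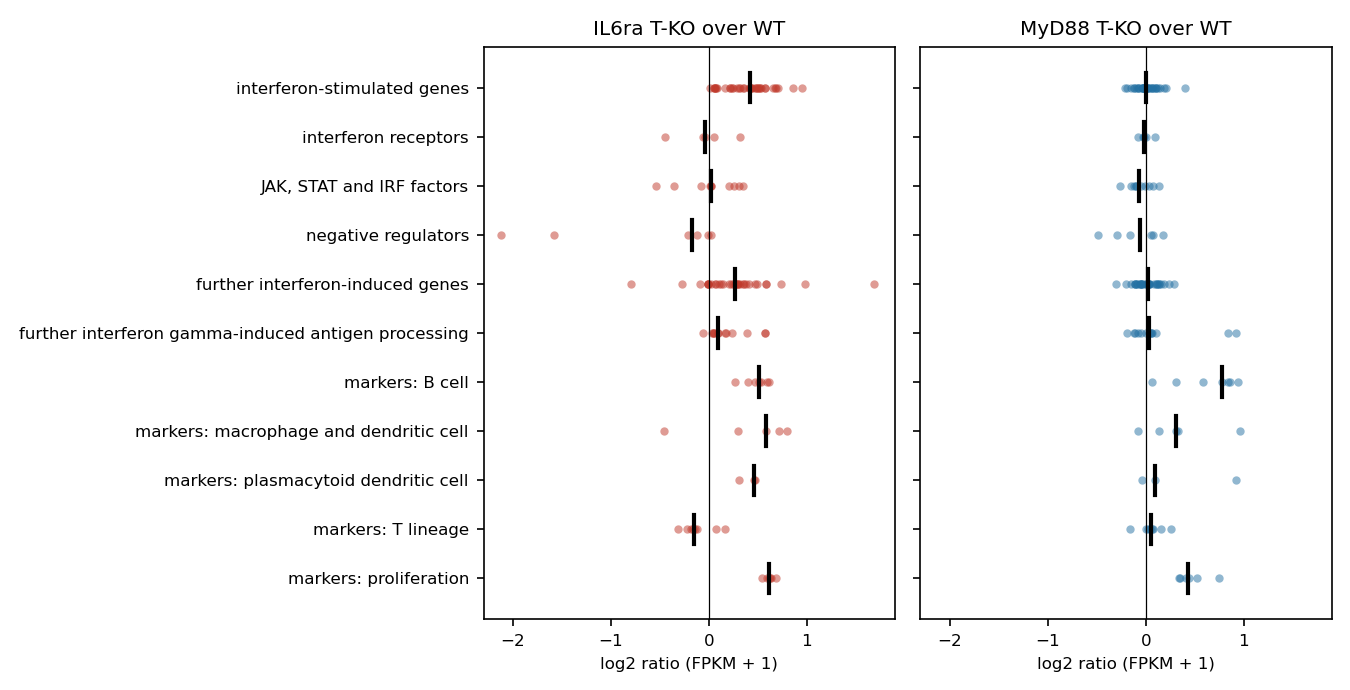
Log2 ratio of FPKM + 1, knockout over WT, of each gene (points) and its median (bars) in the interferon-stimulated genes and in lists of pathway and marker genes, with the library labelled as IL6ra T-KO on the left and MyD88 T-KO on the right. In the library labelled as IL6ra T-KO the medians are 0.42 for the interferon-stimulated genes, 0.51 for B cell markers and 0.62 for proliferation genes, and in MyD88 T-KO -0.00, 0.78 and 0.43.

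Markers of other cells also differed between the libraries. All 7 measured B cell markers lay above WT in both comparisons, with ratios from 0.27 to 0.61 in the library labelled as IL6ra T-KO and from 0.07 to 0.95 in MyD88 T-KO, and a summed FPKM of 180 in the library labelled as IL6ra T-KO and 195 in MyD88 T-KO, against 127 and 124 in WT. For macrophage and dendritic cell markers, 4 of 5 measured lay above WT in both, with sums of 99.5 in the library labelled as IL6ra T-KO and 91.6 in MyD88 T-KO, against 78.7 and 76.8 in WT. Over all genes, 43.1% and 54.2% lay above WT in these comparisons. Cst3 held most of the sums, at 73.1 and 63.5 FPKM in the same order, against 59.3 and 57.9 FPKM in WT. Cd68 lay below WT in both, with ratios of -0.46 and -0.08. Among plasmacytoid dendritic cell markers, a cell type known for type I interferon, Siglech was near 0, at 0.163 FPKM in the library labelled as IL6ra T-KO and 0.145 FPKM in MyD88 T-KO, against 0.0699 and 0.0682 FPKM in WT. Of its 7 listed markers only Bst2, Ly6d and Tcf4 reached 1 FPKM, and Bst2 is also one of the 37. The summed FPKM of these 7 was 70.8 in the library labelled as IL6ra T-KO and 65.3 in MyD88 T-KO, against 50.5 and 49.3 in WT. Bst2 and Ly6d made up most of each sum. Bst2 stood at 42.8 FPKM in the library labelled as IL6ra T-KO and 29.0 FPKM in MyD88 T-KO, against 30.5 and 29.8 FPKM in WT. Ly6d stood at 25.1 and 34.1 FPKM in the same order, against 17.9 and 17.5 FPKM in WT. Plasma cell markers summed to 96.5 FPKM in the library labelled as IL6ra T-KO and 69.6 FPKM in MyD88 T-KO, against 64.0 and 62.5 FPKM in WT. Igj, the antibody joining chain, stood at 42.2 FPKM in the library labelled as IL6ra T-KO and 15.7 FPKM in MyD88 T-KO, against 8.16 and 7.96 FPKM in WT. The plasma cell sums exceeded WT mainly through Igj. In the library labelled as IL6ra T-KO the ratios were -0.17 for Xbp1, 0.56 for Prdm1 and 0.63 for Sdc1. In MyD88 T-KO they were 0.02, -0.37 and 0.25 in that order. Neutrophil markers summed to 20.6 FPKM in the library labelled as IL6ra T-KO and 35.7 FPKM in MyD88 T-KO, against 32.9 and 32.1 FPKM in WT. Cd8a and Cd8b1 summed to 14.2 FPKM in the library labelled as IL6ra T-KO and 22.0 FPKM in MyD88 T-KO, against 11.7 and 11.4 FPKM in WT. NK cell markers summed to 12.4 FPKM in the library labelled as IL6ra T-KO and 11.5 FPKM in MyD88 T-KO, against 11.1 and 10.8 FPKM in WT. Of these, Eomes had ratios of 0.77 and 0.06, Tyrobp of 0.26 and 0.20, and Klrb1c of -0.44 and -0.04. All 6 proliferation genes lay above WT in both comparisons, with medians of 0.62 in the library labelled as IL6ra T-KO and 0.43 in MyD88 T-KO. The part of these cells and of proliferation in the ratios of the interferon-stimulated genes was not tested.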

How the data were processed

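Libraries were made from polyA-selected RNA, per the labels' protocols. The submitters' processing notes name TopHat, Cufflinks and the build mm10, with versions, settings and use of strand not given in the sources used here. Per the file headers, the authors deposited 2 tables, each with FPKM for 1 knockout library and WT, a log2 fold change, a test statistic, a p-value and a q-value per gene. The deposited log2 fold change ran WT over knockout and was turned round. A line without values was left out of each table. The tables were scaled separately, with WT differing by a factor of 1.02, so each knockout was set against the WT of its own table.

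From these values log2((knockout FPKM + 1)/(WT FPKM + 1)) was computed with Python 3.11.15, pandas 2.3.3 and numpy 2.4.6, for genes with FPKM of at least 1 in a library; scipy 1.17.1 gave exact binomial (Clopper-Pearson) intervals on estimated fragments. FPKM carries no depth, so depth was estimated from steps of 1 fragment in low genes, using 97 to 128 genes per library. Intervals cover counting error only. With 1 library per group no test was made. The depth and ratio calculations were tested on simulated data.

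Values in every library were given for the 8 genes with the largest and the 4 with the smallest ratio in the library labelled as IL6ra T-KO, the 4 largest and 4 smallest in MyD88 T-KO, and the 4 most abundant in WT. Genes of the pathway and marker lists were given by name where they lay at the extremes of their list or were fixed components of the pathway. For 1 such component the values are not reported here. The genes and lists were chosen with earlier results of these data known. Alternatives were other pseudocounts, other FPKM minimums, centring on all genes with FPKM of at least 5, and leaving out genes with near-identical copies, Bst2, the pair Parp9 and Dtx3l, or Ifi44 (the pair and Ifi44 chosen after seeing the data).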

Additional observations from a re-analysis of the deposited data

How the results depend on the processing

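The alternatives are no check of the direction in the library labelled as IL6ra T-KO, where every measured interferon-stimulated gene stayed above WT. Other pseudocounts, other FPKM minimums and leaving out genes cannot turn a ratio round, and centring raised every ratio there. As reported, 7 of the 37 genes lay within 0.1 of 0. The median log2 ratio was 0.25 with a pseudocount of 5 FPKM and lay between 0.35 and 0.48 under the other alternatives, beside 0.42 as reported. The count of genes at least 1.5-fold higher depended on the pseudocount, with 11 at 0.1 FPKM and 2 at 5 FPKM, beside 6 as reported, since a larger pseudocount shrinks the ratios of low genes. Centring on the median of all genes with FPKM of at least 5, a shift of -0.06, gave 9, leaving out Ifi44 gave 5 of 36, and leaving out genes with near-identical copies gave 4 of 32. In MyD88 T-KO 15 of 36 genes lay above WT after centring, beside 18 as reported, and none passed 1.5-fold. No paired analysis was possible because each group has 1 library. Leaving out a library was not possible for the same reason, and all values describe these 3 libraries.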
